A study of Mus musculus with 6 samples.

Results

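The BCL2 family genes described here are 10 rows, of 57508 in the deposited gene tables, whose gene name is one of a fixed list. There are 3 anti-apoptotic genes (Bcl2, Bcl2l1 and Mcl1), 2 effectors (Bax and Bak1) and 5 BH3-only genes (Bid, Bad, Bcl2l11, Bbc3 and Pmaip1). RNA was sequenced from KPC1199, a mouse line labelled as pancreatic tumour cells. The labels give no alleles. There were 3 libraries labelled WT and 3 labelled ACSL5 knockdown, and the titles of the latter say KO. The libraries are named siACSL5_CY3 in the WT group and siACSL5_2260 in the knockdown group. The labels explain neither suffix and give no dose or time. No label says that the libraries of a group came from separate cultures, so p-values reflect only how these libraries vary, and that variation may be technical.

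Proteins of the BCL2 family set whether the outer mitochondrial membrane stays intact. The anti-apoptotic members hold the effectors BAX and BAK in check, and BH3-only proteins relay stress by binding the anti-apoptotic members or the effectors. Once active, the effectors open pores that release cytochrome c, which starts the caspase cascade. Pancreatic tumour cells are known to lean on BCL-XL and MCL1, the products of Bcl2l1 and Mcl1.

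Expected counts totalled between 21794244 and 29996194 per library. Acsl5, the targeted gene, stood at 265 to 342 CPM in the WT libraries and at 49.8 to 57.2 CPM in the knockdown libraries. CPM are counts scaled for library size with TMM over the 6 libraries, and values by library are listed in the order of replicates 1, 2 and 3. WT replicate 1 stood apart. Its log2 CPM values correlated with those of the other libraries at 0.825 to 0.856 across genes, whereas the other 5 libraries correlated with each other at 0.961 or more. The share of counts on ribosomal protein genes was 9.74% there, compared with 3.71% to 4.37% elsewhere. The 10 genes are therefore compared over all 6 libraries and over 5 libraries, without WT replicate 1. Of 8 epithelial markers, 7 reached a mean of 1 TPM, led by Krt19 at 3774 TPM or more, while Cldn4 was at 0. Of 8 leukocyte markers, 1 reached a mean of 1 TPM, Cd68 at 3.42 to 8.49 TPM. The leukocyte markers summed to 3.55 to 8.59 TPM, with Cd3e and Adgre1 among those at 0 in every library. Of 8 fibroblast markers, 4 reached a mean of 1 TPM, led by Col3a1 at 34.35 to 70.62 TPM, while Lum was at 0. Fibroblast markers summed to 42.3 to 102 TPM in WT and 76.1 to 84.7 TPM in knockdown libraries. Their part in the results below was not tested. In RNA from a whole culture, fewer cells that express a gene and less RNA per cell cannot be told apart.

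In the 5 libraries, Bbc3 rose 4.11-fold in knockdown cells, Bid and Bax rose slightly, and Bak1 and Bcl2 fell slightly. The other 5 genes did not pass the test. Over all 6 libraries edgeR's quasi-likelihood test called no member and no other gene, while DESeq2 called 724 genes with 1 member, Bbc3, and limma-voom with library weights called 5906 genes with 5 members. In the fit of 5 libraries, 5 of the 10 members were called at an adjusted p below 0.05, where 34.3% of all genes tested were called. The 3 members called higher compare with a background of 16.3%, and the 2 called lower with 18.0%. These counts are near the background and are not a result about the family. The median log2 fold change of the members was 0.03, against -0.01 for all 15152 genes tested.

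**Figure D1:**
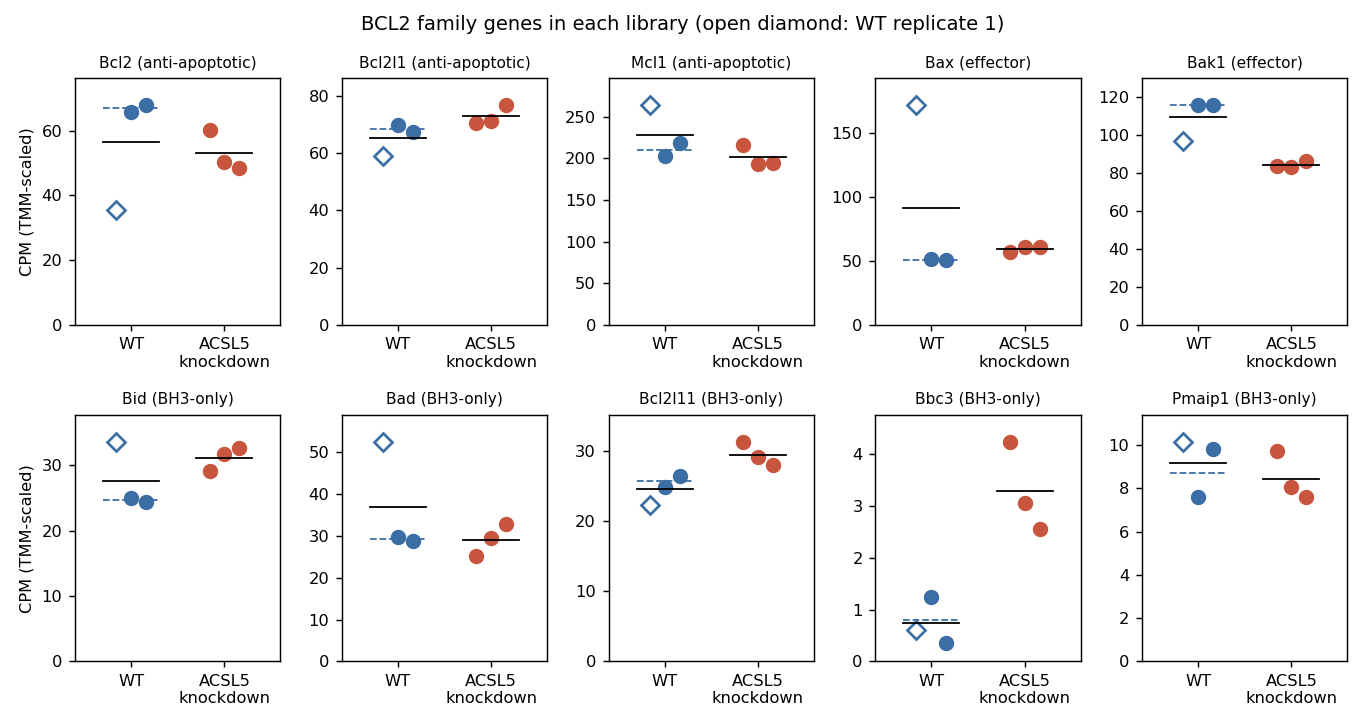
CPM of the 10 genes in each library, with WT libraries in blue and ACSL5 knockdown libraries in red. The open diamond is WT replicate 1, black lines are group means and dashed lines are means of WT replicates 2 and 3. For Bbc3 the knockdown libraries lie at 2.55 to 4.24 CPM, above all WT libraries, and for Bax WT replicate 1 lies at 172 CPM, far above the other 5.

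Bbc3 encodes PUMA, a BH3-only protein that binds all anti-apoptotic members and is induced by p53, by FOXO factors and by endoplasmic reticulum stress. Its expected counts were 11, 28 and 11 in the WT libraries, and 101, 83 and 69 in the knockdown libraries. This corresponds to 0.601, 1.24 and 0.357 CPM in WT and 4.24, 3.06 and 2.55 CPM in knockdown. It was the scarcest member in every WT library, and the lowest knockdown library lay above the highest WT library. Leaving out WT replicate 1, mean CPM rose from 0.799 ± 0.625 (SD, n = 2) to 3.28 ± 0.869 (SD, n = 3). The log2 fold change was 2.08 (SE 0.486), with an adjusted p of 0.0136 in edgeR's quasi-likelihood test. Over all 6 libraries it was 2.17 (SE 0.493), with an edgeR adjusted p of 0.148 and a DESeq2 adjusted p of 0.00284. DESeq2 called 4.61% of genes over 6 libraries, 2.39% higher, and Bbc3 was the one member among them. The size rests on few WT counts, since it became 3.16 without WT replicate 2 and 1.38 without WT replicate 3, both in the fit of 5 libraries and both still called.

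The Bbc3 transcript is 65.2% G and C, which puts it above 99.7% of the genes tested with a known GC content. In this comparison the fold changes of genes followed GC content, with a Spearman correlation of 0.321 over 14591 genes that share the same libraries. When the smooth GC trend of each library was removed, Bbc3 was at 1.45 (SE 0.426, edgeR adjusted p = 0.0309). Bbc3 (ENSMUSG00000002083) lies on the plus strand of chromosome 7 of GRCm38, from 16308393 to 16318205, in 4 exons.

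Promoters of Bbc3 and Bcl2l11 are shown because these were the BH3-only genes whose 3 knockdown libraries all lay above the 3 WT libraries in CPM. RefSeq gives 3 promoters for Bbc3 and 2 for Bcl2l11, and the one shown for each is the one that holds the FOXO core motif. Each runs from 250 bases before to 50 bases after an annotated start, from RefSeq on GRCm38.p6, and lies on the plus strand. Capitals mark this motif, TGTTTAC, or its reverse complement. The Bbc3 promoter shown is chr7:16310011-16310310 and the Bcl2l11 promoter shown is chr2:128125788-128126087.
Bbc3: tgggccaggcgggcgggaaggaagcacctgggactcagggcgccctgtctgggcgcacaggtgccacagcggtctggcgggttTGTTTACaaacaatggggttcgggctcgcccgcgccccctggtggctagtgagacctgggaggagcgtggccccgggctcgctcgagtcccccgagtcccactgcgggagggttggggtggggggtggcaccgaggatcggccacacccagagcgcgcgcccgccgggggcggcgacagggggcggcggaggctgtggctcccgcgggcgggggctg
Bcl2l11: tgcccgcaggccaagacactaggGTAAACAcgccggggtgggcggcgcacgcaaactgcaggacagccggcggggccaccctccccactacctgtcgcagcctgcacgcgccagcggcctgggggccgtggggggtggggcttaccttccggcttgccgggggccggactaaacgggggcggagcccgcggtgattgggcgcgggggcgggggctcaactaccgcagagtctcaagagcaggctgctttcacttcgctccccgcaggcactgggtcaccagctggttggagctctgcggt
The motif begins at position -167 from the start in Bbc3 and at position -227 in Bcl2l11. RefSeq promoters were matched for 9 of the 10 members, with 15 promoters in all, and these 2 were the promoters that held the motif. It was found, on either strand, in 3.65% of the 32851 promoters of the table. The AP-1 motif TGANTCA and the motif TGATGCA, the start of the site bound by CHOP with ATF4, occurred in none of the 15. The E-box CACGTG occurred in one promoter each of Bax and Bbc3, against 7.15% of all promoters. The GC box GGGCGG occurred in 10 of the 15, against 35.7% of all, and in 7 of the 9 members, against 38.2% of genes. The 15 are not separate, since 2 of the Bbc3 promoters overlap. Member promoters were 49.3% to 78.0% G and C, against a median of 52.7% over all promoters. A match describes letters in this window and not a bound site.

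Bcl2l11 encodes BIM, a BH3-only protein that FOXO3 and JUN are known to induce. It stood at 22.4, 25.0 and 26.5 CPM in the WT libraries, and at 31.4, 29.2 and 28.0 CPM in the knockdown libraries. All knockdown libraries lay above all WT libraries, by a small margin. Its log2 fold change without WT replicate 1 was 0.18 (SE 0.0788) with an edgeR adjusted p of 0.101. In the deposited TPM the same libraries gave 0.42 (SE 0.0733) on the log2(TPM + 1) scale, with a limma adjusted p of 0.024. With the GC trend removed the edgeR value was 0.25 (adjusted p = 0.0309). Over 6 libraries it was 0.26 (SE 0.13, edgeR adjusted p = 0.374).

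Bid, which caspase 8 cleaves to link death receptors with mitochondria, was at 33.6, 24.9 and 24.3 CPM in the WT libraries, against 29.1, 31.7 and 32.6 CPM after knockdown. WT replicate 1 was the highest of all. Without it, Bid rose by 0.32 on the log2 scale (SE 0.082, edgeR adjusted p = 0.0111). With it, the value was 0.17 (SE 0.168, adjusted p = 0.61). With 1 WT library fewer the value stayed similar and the call was lost, at 0.34 (edgeR adjusted p = 0.0662) without WT replicate 2 and 0.30 (edgeR adjusted p = 0.104) without WT replicate 3. In TPM, which divides by transcript length, WT replicate 1 was instead the lowest for Bid, at 15.3 TPM, as for every member but Bax. All 3 knockdown libraries then lay above all 3 WT libraries, at 24.7 to 26.1 against 15.3 to 21.8 TPM. Over 6 libraries Bid was at 0.42 on the log2(TPM + 1) scale (limma adjusted p = 0.457), where the median of all genes was 0.26. The share of all genes whose groups did not overlap in TPM was not counted.

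Bad encodes a BH3-only protein that survival kinases silence by phosphorylation. It stood at 52.6, 29.7 and 28.8 CPM in the WT libraries, against 25.1, 29.5 and 32.7 CPM after knockdown. The groups overlapped, and WT replicate 1 was the highest of all. The log2 fold change was -0.018 (SE 0.111, edgeR adjusted p = 0.922) without that library and -0.34 (SE 0.273, adjusted p = 0.54) with it. With the GC trend removed the 5 libraries gave -0.40 (SE 0.136, edgeR adjusted p = 0.0634). The Bad transcript is 61.3% G and C, and the cause of this difference between settings was not tested.

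Pmaip1 encodes NOXA, which neutralises MCL1. It was low, at 10.2, 7.58 and 9.80 CPM in the WT libraries and 9.70, 8.04 and 7.60 CPM in the knockdown libraries. The groups overlapped, and the log2 fold change was -0.066 (SE 0.152, edgeR adjusted p = 0.78) without WT replicate 1 and -0.12 (SE 0.188, adjusted p = 0.755) with it.

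In the 5 libraries the effectors moved in opposite directions. Bak1 was at 96.9, 116 and 116 CPM in the WT libraries and at 83.5, 83.0 and 86.2 CPM in the knockdown libraries. Each knockdown library lay below each WT library. In the 5 libraries it fell by 0.47 on the log2 scale (SE 0.0491, edgeR adjusted p = 7.4e-05), the smallest p of the 10 members. Knockdown cells kept 72.7% of the mean of WT replicates 2 and 3. The call held in all 11 other settings of that fit and with each of its 5 libraries left out, with values between -0.61 and -0.34. With all 6 libraries the value was -0.38 (SE 0.134, edgeR adjusted p = 0.26), and in TPM the groups then overlapped because WT replicate 1 stood at 43.2 TPM.

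Bax was at 172, 51.2 and 50.2 CPM in the WT libraries and at 56.5, 60.6 and 61.1 CPM in the knockdown libraries. WT replicate 1 had more than any other library. The direction therefore depends on that library, with log2 fold changes of 0.21 (SE 0.0619, edgeR adjusted p = 0.0215) without it and -0.61 (SE 0.508, adjusted p = 0.557) with it. Bax is short, at 867 bases, and only 7.52% of the genes tested are shorter. With the GC trend removed the value without WT replicate 1 was -0.039 (edgeR adjusted p = 0.689). With 1 library fewer the value stayed between 0.20 and 0.26, while the edgeR adjusted p was 0.0975 without WT replicate 2, 0.162 without WT replicate 3, 0.0567 without knockdown replicate 2 and 0.0559 without knockdown replicate 3.

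Among the anti-apoptotic genes, Bcl2 was the one called. It was at 35.6, 65.9 and 68.1 CPM in the WT libraries, against 60.4, 50.2 and 48.6 CPM after knockdown. The 3 knockdown libraries lay between WT replicate 1 and the other WT libraries. In those 5 libraries Bcl2 fell by 0.35 on the log2 scale (SE 0.0839, edgeR adjusted p = 0.0104). With it, the value was -0.092 (SE 0.271, adjusted p = 0.877). Bcl2 has the longest transcript of the members, at 7191 bases. With the length trend removed Bcl2 was at -0.28 (SE 0.0946, edgeR adjusted p = 0.128) over 6 libraries. Without WT replicate 1 that setting gave -0.27 (SE 0.0741, edgeR adjusted p = 0.0177). With 1 library fewer the value stayed between -0.44 and -0.28, while the edgeR adjusted p was 0.0599 without WT replicate 2, 0.101 without WT replicate 3 and 0.0648 without knockdown replicate 2. On the log2(TPM + 1) scale it was -0.31 (limma adjusted p = 0.0758).

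Bcl2l1 encodes BCL-XL. It stood at 59.0, 69.8 and 67.2 CPM in the WT libraries and at 70.6, 71.1 and 76.9 CPM in the knockdown libraries. The lowest knockdown library lay just above the highest WT library. The log2 fold change was 0.075 (SE 0.0594, edgeR adjusted p = 0.37) without WT replicate 1 and 0.16 (SE 0.13, adjusted p = 0.558) with it. Mcl1, whose protein is short-lived and depends on steady transcription, stood at 264, 203 and 218 CPM in the WT libraries and at 216, 193 and 194 CPM in the knockdown libraries. The groups overlapped, at -0.080 (SE 0.056, edgeR adjusted p = 0.306) without WT replicate 1 and -0.18 (SE 0.156, adjusted p = 0.571) with it. When knockdown replicate 1 was left out as well, Mcl1 was at -0.12 (edgeR adjusted p = 0.0324).

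**Figure D2:**
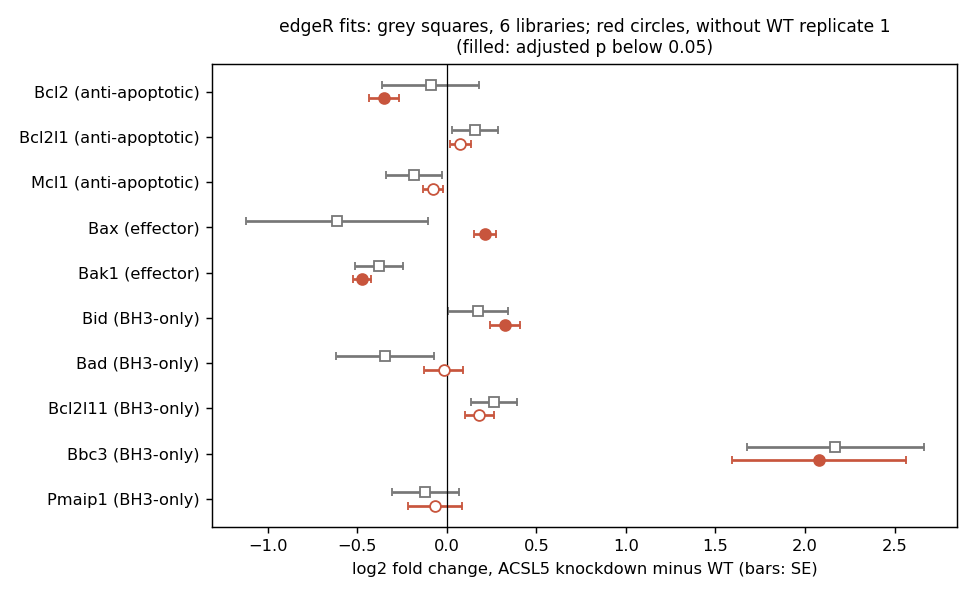
Log2 fold change of each gene, ACSL5 knockdown minus WT, with its standard error, over 6 libraries (grey squares) and without WT replicate 1 (red circles). Filled symbols passed an adjusted p of 0.05. Bbc3 lies near 2 in both fits, Bax changes side, and no grey symbol is filled.

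Over all 6 libraries edgeR called 0 of 14679 genes (0%), while 2351 genes had an unadjusted p below 0.05. Bak1 and Bbc3 were the 2 members among these. The CPM of the groups did not overlap for 4 members, higher for Bbc3, Bcl2l11 and Bcl2l1 and lower for Bak1, where 34.3% of all genes did not overlap, 18.7% higher and 15.6% lower. In the 5 libraries this held for 7 members, 5 higher and 2 lower, against 59.7% of all genes, 30.4% higher and 29.3% lower. Both shares of the members were near those of all genes. A limma-voom fit of the 6 libraries with a quality weight for each library, which gave WT replicate 1 a weight of 0.0312, called 5 members and 40.2% of all genes.

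The levels per transcript length put the 10 genes in an order led by the effectors. In the mean of WT replicates 2 and 3 the deposited TPM were 124 for Bak1, 117 for Bax, 91.8 for Mcl1, 64.1 for Bad and 46.8 for Bcl2l1. They were 20.9 for Bid, 14.0 for Bcl2, 8.86 for Bcl2l11, 5.30 for Pmaip1 and 0.740 for Bbc3. In these WT libraries no neighbours in that order overlapped, though Bak1 and Bax differed by little. In the knockdown libraries Bax, at 134 to 143 TPM, stood above Bak1, at 94.1 to 103 TPM. Bcl2l11, at 11.8 to 12.9 TPM, overlapped there with Bcl2, at 10.4 to 12.3 TPM. Bbc3, at 3.03 to 6.95 TPM, overlapped there with Pmaip1, at 4.48 to 5.59 TPM.

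**Figure D3:**
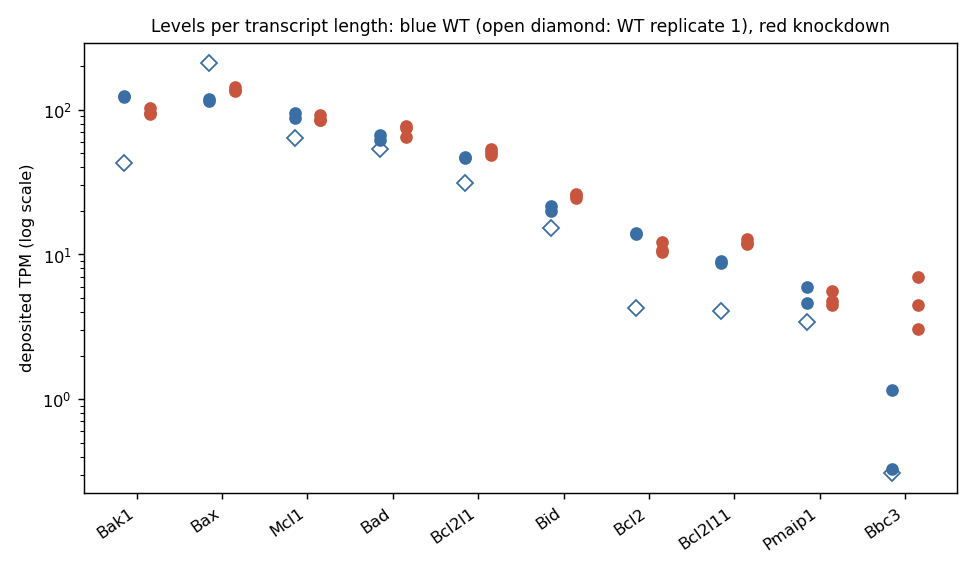
Deposited TPM of each gene on a log axis, ordered by the mean of WT replicates 2 and 3, with WT in blue and knockdown in red. The open diamond, WT replicate 1, is the lowest library for 9 of the 10 genes and the highest for Bax at 210 TPM.

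Summed by role, with no test because the members were chosen with results known, anti-apoptotic TPM were 148 and 157 for WT replicates 2 and 3, against 153, 147 and 149 after knockdown. Effector TPM were 242 and 239 in those WT libraries and 238, 238 and 232 in the knockdown libraries, the gain of Bax and the loss of Bak1 nearly cancelling. The 5 BH3-only genes summed to 103 and 96.7 TPM in those WT libraries and to 116, 123 and 121 TPM in the knockdown libraries. The largest step in mean TPM was that of Bad, from 64.1 to 72.5, though its groups overlapped and it was not called. Bid went from 20.9 to 25.5, Bcl2l11 from 8.86 to 12.2, Bbc3 from 0.740 to 4.82 and Pmaip1 from 5.30 to 4.95. WT replicate 1 was at 98.8, 253 and 76.6 TPM for the 3 sums. Bax over Bak1 TPM came to 4.87, 0.972 and 0.925 in the WT libraries, against 1.30, 1.51 and 1.47 after knockdown, so WT replicate 1 was the highest and the other WT libraries the lowest. Bcl2l1 over Bcl2 TPM came to 7.27, 3.32 and 3.35 in the WT libraries, against 3.94, 4.77 and 5.17 after knockdown, and WT replicate 1 was again the highest.

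The deposited counts and TPM together imply a mean transcript length for each gene and library, since counts per TPM grow with the length used. For Bbc3 this was 1808, 1877 and 1882 bases in the WT libraries and 1058, 1223 and 1494 bases in the knockdown libraries. The ratio of knockdown to WT replicates 2 and 3 was 0.669. Of 10687 genes with at least 50 counts and 1 TPM in every library, 0.477% had a lower ratio. Bbc3 did not reach 50 counts in WT, and its counts of 11 to 28 there leave its lengths imprecise. For Bcl2l11 the implied lengths were 5133, 5001 and 5098 bases in WT and 4228, 4427 and 4176 bases in knockdown. The ratio was 0.847, and 3.29% of the 10687 genes had a lower one. For the other 8 members the ratio lay between 0.894 and 1.06. The ratio of mean TPM between groups is thus larger than that of mean CPM for both genes, and whether the mix of transcripts or the authors' assignment of few reads differed was not tested.

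Bak1 and Mcl1 are the members whose annotated 3' UTR holds one of 2 related sequences of 7 bases, GAACTAC or AACTACA, which earlier results of these data linked with lower genes. The sites are shown with 10 bases before and 11 after, from GENCODE M21 transcripts on GRCm38, with the 7 bases in capitals. The Bak1 site is chr17:27020046-27020052 on the minus strand and the Mcl1 site is chr3:95660866-95660872 on the plus strand.
Bak1: ccacactagaGAACTACtccagcagaag
Mcl1: ccagccaccaAACTACAtgcatctgtga
GAACTAC occurred in the UTRs of 5.72% of 12447 genes tested without WT replicate 1, whose median log2 fold change was -0.21, against 0.007 for the genes without it. AACTACA occurred in 10.2%, with a median of -0.14 against 0.01. Bak1 was at -0.47 and Mcl1 at -0.080 in that fit. Both sequences were chosen with results of these data known, so lower medians in the same libraries are no separate support. Genes were not matched for UTR length or GC content. Bcl2, called lower in the same fit, held neither sequence in its 3' UTR of 5086 bases. Whether either sequence bears on the level of any member was not tested. The genes whose log2(CPM + 1) over the 6 libraries was most like that of Bak1 were Pvr, Paqr8 and Trim7, at Pearson correlations of 0.999, 0.997 and 0.996 over 6 libraries among 10726 genes.

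The following lists of neighbouring genes are described by counts and medians in the fit without WT replicate 1, where edgeR called 34.3% of all genes, 16.3% higher and 18.0% lower. Over 6 libraries edgeR called no gene in them, and DESeq2 called 1 lower gene each among the other BCL2 family genes and the caspase list, 2 higher among the regulators of BH3-only genes and 1 higher among the p53 targets. Values are from the 5 libraries unless 6 are named. With the GC trend removed edgeR called 4781 of 15152 genes, 2378 higher and 2403 lower, and lists both lost and gained calls. Higher and lower counts were then 5 and 7 for p53 targets, 2 and 4 for other BCL2 family genes and 2 and 3 for the caspase list. They were 0 and 2 for inhibitors of apoptosis, 1 and 2 for death receptors and 3 and 0 for proteins that bind BCL2 proteins. Genes that control MCL1, BIM or BAD had 3 and 3. Of 10 tested genes that induce BH3-only genes, 7 were higher and 0 lower, with a median of 0.49. With the GC trend removed 7 were higher and 1 lower, E2f1 at -0.36, with a median of 0.37, and Jun was no longer called (edgeR adjusted p = 0.0637). Ddit3, which encodes CHOP, rose from a mean CPM of 11.9 ± 1.51 (SD, n = 2) to one of 22.4 ± 1.95 (SD, n = 3), a log2 fold change of 0.90 (edgeR adjusted p = 2.81e-04). Trib3, a target of CHOP, was at 0.68, Myc at 0.79, Trp53 at 0.26 and Atf4, the most abundant, at 0.30. The remaining higher genes, Jun at 1.42 and Trp63 at 2.03 with under 2 CPM, were named after their values were seen. Foxo1 and Foxo3, likewise, were at 0.14 (adjusted p = 0.125) and 0.16 (adjusted p = 0.281). With the GC trend removed Foxo1 was called, at 0.21 (edgeR adjusted p = 0.0371). Foxo3 was not, at 0.15 (edgeR adjusted p = 0.399). WT replicate 1 had more Ddit3 (24.2 CPM), Trib3 (46.1 CPM) and Atf4 (718 CPM) than the mean of the knockdown libraries, and over 6 libraries these were at 0.49, 0.38 and -0.18. There Trp53 was at 0.097 and Myc at 0.49.

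Other p53 targets went both ways, with 3 higher and 6 lower of 16 and a median of -0.004. Gadd45a, a stress-induced growth arrest gene, rose by 1.30 and Plk2 by 0.87, while Zmat3 fell by 0.55 and Ccng1 fell by 0.34. Over 6 libraries these were at 0.77, 0.94, -0.42 and -0.31, uncalled by edgeR. Mdm2, the ubiquitin ligase of p53, was at 0.13 (edgeR adjusted p = 0.387).

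Of the other BCL2 family genes, 9 of 15 were tested, 2 were higher and 4 lower, with a median of -0.20. Bok, an effector-like member, rose from a mean CPM of 7.42 ± 0.722 (SD, n = 2) to one of 16.2 ± 3.47 (SD, n = 3), at 1.11 (edgeR adjusted p = 0.00143). It was at 22.2 CPM in WT replicate 1, and at 0.39 over 6 libraries. Bok was at 0.46 with the GC trend removed, still called. Bcl2l2, which encodes anti-apoptotic BCL-W, fell by 0.61, and the mitophagy receptor genes Bnip3 and Bnip3l fell by 0.64 and 0.30. These 3 were lower in each knockdown library than in any WT library, WT replicate 1 included.

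Downstream of the mitochondria, 1 of 12 genes of cytochrome c, the apoptosome and caspases was higher and 3 were lower, with a median of -0.007. Casp6, an executioner caspase gene, fell from a mean CPM of 29.3 ± 0.586 (SD, n = 2) to one of 17.3 ± 0.662 (SD, n = 3), a log2 fold change of -0.77 (edgeR adjusted p = 8.43e-05). It was lower than in WT replicate 1 as well, and over 6 libraries it was at -1.03, uncalled. Aifm1 fell by 0.15, a call lost with the GC trend removed (-0.10, edgeR adjusted p = 0.163), and the nuclease gene Dffb rose by 0.78. Of 7 inhibitors of apoptosis and their antagonists, 0 were higher and 3 lower, with a median of -0.21. Xiap, a direct caspase inhibitor, fell by 0.36, Birc3 by 0.38 and the protease gene Htra2, whose product antagonises such inhibitors, fell by 0.29. Xiap stood at 42.3 CPM in WT replicate 1, below the 79.8 to 89.6 CPM of the knockdown libraries, and was at -0.018 over 6 libraries. Over 6 libraries Birc3 was at -0.19 and Htra2 at -0.80. Xiap was at -0.19 with the GC trend removed, still called, and Birc3 was not called (edgeR adjusted p = 0.1). Birc5, the most abundant, was at -0.14 (edgeR adjusted p = 0.126).

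Among death receptors and the caspase 8 pathway, 1 of 10 was higher and 1 lower, with a median of -0.05. Tnfrsf1a, a receptor of TNF, rose by 0.14 and Tnfrsf10b, the mouse TRAIL receptor, fell by 0.33. Over 6 libraries they were at 0.17 and -0.18, and with the GC trend removed Tnfrsf1a was at 0.044 (edgeR adjusted p = 0.485). Of 5 genes for membrane proteins that bind BCL2 proteins, 2 were higher and 1 lower, with a median of 0.13. The channel genes Vdac1 and Vdac2 rose by 0.14 and 0.15, and Mtch2, whose product receives cleaved BID, fell by 0.27, a call lost with the GC trend removed (-0.15, edgeR adjusted p = 0.0717). Over 6 libraries Mtch2 was at -0.73, with WT replicate 1 at 584 CPM. Of 14 genes that control MCL1, BIM or BAD proteins, 1 was higher and 3 lower, with a median of -0.02. Pim3, a kinase that phosphorylates BAD, rose by 0.97. Huwe1 and Btrc, of ubiquitin ligases that act on MCL1, fell by 0.36 and 0.35, and Usp9x, a deubiquitinase of MCL1, fell by 0.14. Usp9x was at 0.0038 with the GC trend removed (edgeR adjusted p = 0.961). Over 6 libraries Pim3 was at 0.71 and Btrc at -0.15. Ywhae, the most abundant, was at -0.083 (adjusted p = 0.203 in edgeR). With WT replicate 1 included, Huwe1, Usp9x, Vdac1 and Vdac2 changed sign, to 0.046, 0.14, -0.092 and -0.26, none called.

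**Figure D4:**
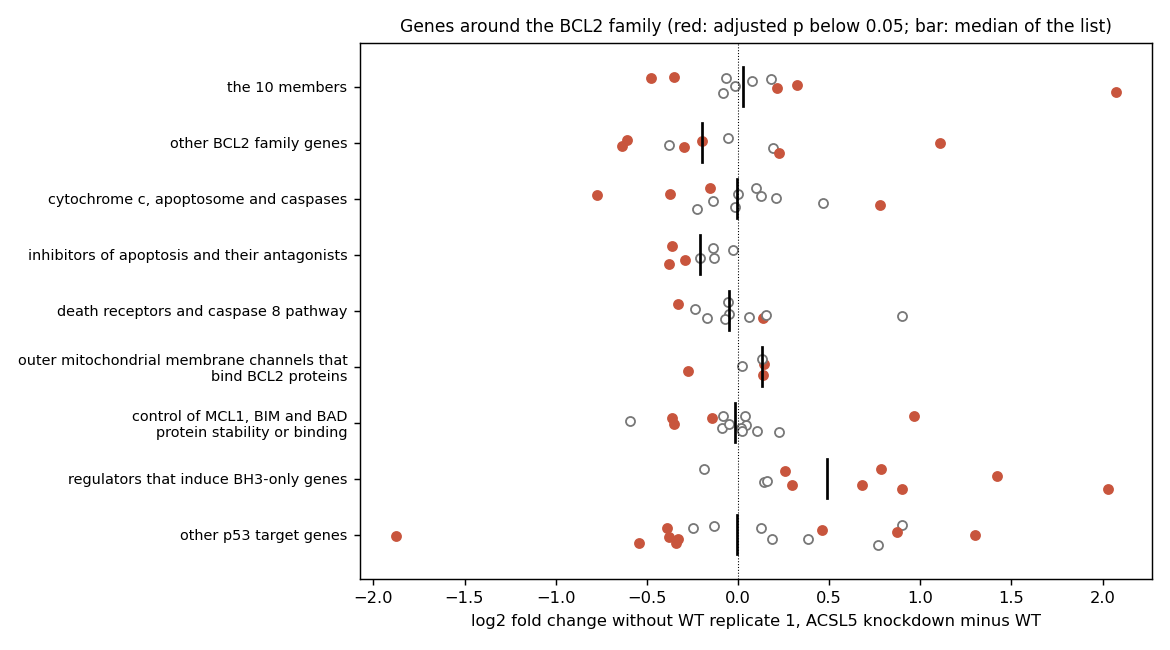
Log2 fold changes without WT replicate 1 for the 10 members and 8 lists of neighbouring genes, with called genes in red and the median of each list as a bar. The regulators that induce BH3-only genes have a median of 0.49, and the other medians lie between -0.21 and 0.13.

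**Figure D5:**
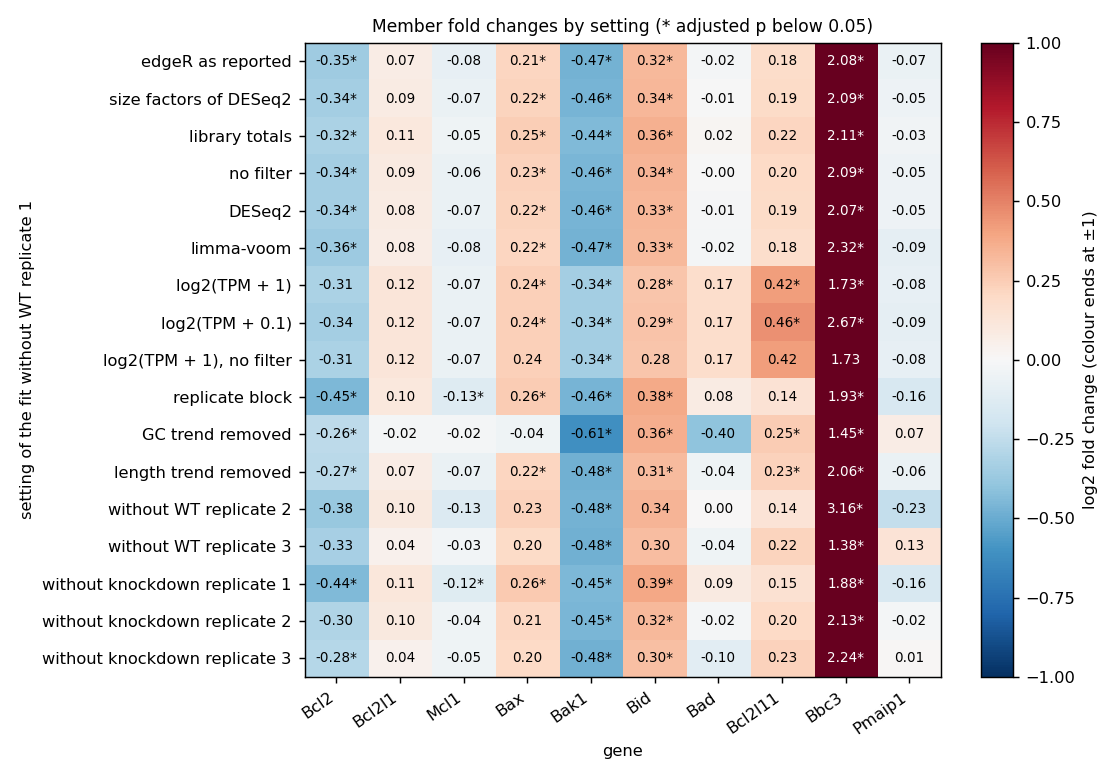
Log2 fold change of each member (columns) without WT replicate 1 under each setting (rows), coloured from blue (lower in knockdown) to red (higher), with an asterisk for an adjusted p below 0.05. Bak1 is called in every row, and Bbc3 in all but log2(TPM + 1) without a filter, where its value is 1.73.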

How the data were processed

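RNA of 3 WT and 3 ACSL5 knockdown libraries was sequenced on an Illumina platform after TRIzol extraction, per the labels' protocols. Tools listed in the submitters' processing notes are DESeq2, StringTie, HISAT2 and fastp, with neither version nor role. The builds listed there, hg38 and GRCh38, are human, while the tables hold mouse Ensembl identifiers. Which program made the values is not given in the sources used here. As files, the authors deposited expected counts per gene and, in a second table, TPM, with a gene length in bases. The authors' group mean columns were not used, and 0 columns lacked a sample.

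Expected counts were rounded. Genes were filtered with filterByExpr, scaled by TMM and compared with the robust quasi-likelihood test of edgeR 4.0.16 in R 4.3.3, two-sided, with Benjamini-Hochberg adjustment over all genes tested. SE is the log2 fold change over the root of F. The scripts were tested on simulated data. The alternatives used DESeq2 1.42.0 and limma 3.58.1, where TPM were tested as log2(TPM + 1) or log2(TPM + 0.1) keeping genes whose group mean reached 1 TPM in WT or knockdown, and lowess trends (span 0.3) with gene length or GC content. GC content was known for 96.3% of genes, from GENCODE M21.

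The members, lists, motifs and the fit without WT replicate 1 were chosen with earlier results of these data known. Neighbouring genes are named by a rule, which takes up to 4 called genes of a list with the smallest p and its most abundant gene. The 3 genes most like the member with the smallest p were taken where mean CPM reached 5. Ddit3 has a second row of under 5 counts per library, which was not used. Strandedness is not given in the sources used here, so reads of overlapping genes on opposite strands cannot be told apart. Some items are not reported here.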

Additional observations from a re-analysis of the deposited data

How the results depend on the processing

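Over 6 libraries, the count of 0 genes called became 724 in DESeq2, 9 in limma-voom and 5906 with library weights. It was 1 with library totals, 4 with no filter, 3 with the GC trend removed and 917 with the length trend removed. Leaving out single libraries gave 0 to 5193. The count of members called, 0, became 1 in DESeq2 and 5 with library weights, and leaving out single libraries gave 0 to 5. Without WT replicate 1, the 5193 calls became 2464 with log2(TPM + 1), 2544 with log2(TPM + 0.1) and 1266 with TPM and no filter, and ranged from 2599 to 6188 when a further library was left out. Where 1 WT library remained, its spread was taken from the knockdown libraries. Called genes were 47.6% higher in edgeR and 59.2% higher with log2(TPM + 1). The 5 members called became 1 with TPM and no filter, where 1266 of 26062 genes were called. They became 6 without knockdown replicate 1, where 6188 of 14936 genes were called. Without knockdown replicate 2 they became 3, with 4233 of 14796 genes called. Without knockdown replicate 3 they became 4, with 4276 of 14754 genes called. These member counts are read beside the calls over all genes and are not a result about the members.

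Over 6 libraries a TPM scale shifts the median of all genes to 0.26 with log2(TPM + 1) and to 0.30 with log2(TPM + 0.1). Several members changed sign on that scale, none of them called there. With log2(TPM + 1), with or without the filter, Bcl2 was at 0.19, Mcl1 at 0.11, Bak1 at 0.16, Bad at 0.26 and Pmaip1 at 0.091, and with log2(TPM + 0.1) they were at 0.23, 0.11, 0.16, 0.26 and 0.11. With library weights Bax was at 0.24, a called change of sign (limma adjusted p = 0.0365), and Bad was at 0.036, not called. With a library left out Bcl2 ranged from -0.35 to 0.056 and Bax from -0.92 to 0.21. Bcl2 at -0.35 and Bax at 0.21 are the values without WT replicate 1, where both were called. Without WT replicate 1, Bad was at 0.016 with library totals, 0.17 in each TPM setting and 0.084 with the replicate block. With the GC trend removed Bcl2l1 was at -0.017, Bax at -0.039 and Pmaip1 at 0.075. With a further library left out Bad ranged from -0.10 to 0.093 and Pmaip1 from -0.23 to 0.13. The cause of these changes was not tested.

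Deviations from the group means correlated at -0.156, 0.0723 and -0.282 between libraries numbered 1, 2 and 3. WT replicate 1 dominates the WT deviations, so this check could not show pairing, and no label gives any. With the replicate number as a block, 0 genes were called over 6 libraries and 5753 without WT replicate 1, with 3 members higher and 3 lower. Depth limits Bbc3 most, with 11 to 28 counts in a WT library.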
